A study of Mus musculus with 6 samples.

Results

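The lysosomal genes described here are 31 mouse genes, made up of hydrolases, membrane proteins, subunits of the proton pump and the transcription factors TFEB and TFE3. The genes were chosen by name, and all 31 are among the 13341 rows of the deposited table and the 10540 rows tested. Messenger RNA came from mouse hepatic stellate cells, pericytes that line the liver sinusoids and store vitamin A, grown for 4 days in DMEM with 10% serum under basal conditions and given no other treatment. The cells were labelled wild type or Nbr1 knock-out, with 3 libraries of each label, and the series calls them biological replicates. The labels give no strain, age, sex, promoter, Cre driver or clone, and they do not say how the deletion was made. Whether the 3 replicates of a label came from separate animals or separate cultures of the same cells is not stated, so the p-values measure the spread between these libraries. The series concerns how NBR1 and p62, 2 receptors that carry cargo to the autophagosome, act on the STING pathway in stellate cells.

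Lysosomes are acidic organelles in which proteins, glycans and lipids are broken down by hydrolases. A proton pump acidifies them, heavily glycosylated membrane proteins line them, and most of the soluble enzymes are delivered from the Golgi by mannose 6-phosphate receptors. TFEB and its relative TFE3 are kept in the cytoplasm when nutrients are plentiful and enter the nucleus when they are scarce, where they bind short palindromic DNA elements near the start of many lysosomal genes. Autophagosomes, which NBR1 helps to load, fuse with lysosomes to have their contents degraded.

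The promoters show which of these genes carry the core of that element. RefSeq promoters of build GRCm38.p6, from 250 bases before to 50 bases after a gene's start, were at hand for 26 of the 31 genes. The hexamer CACGTG was found in 10 of the 26 (38.5%), against 1020 of 8414 tested genes with a promoter (12.1%). The heptamer TCACGTG, searched on both strands, was found in 9 (34.6%), against 7.40% of tested genes with a promoter and 3.77% of all 32851 promoters in the table. A gene was counted if any of its promoters held the match, while the 3.77% counts single promoters, also of genes not tested here. The hexamer is contained in the heptamer, so all 9 genes with the heptamer also count for the hexamer. A match describes letters in this window and is not a measured binding site. The full 10-base palindrome around this core was found in 0 of the 26, against 0.903% of tested genes, and the heptamer in 23.3% of 116 genes of the other lysosomal lists described at the end. The 8 sites below show the heptamer, by which they were chosen, in its differing surroundings in members of several roles, with the heptamer, or the octamer where both ends match, in capitals.
Ctsa: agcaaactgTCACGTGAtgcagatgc
Ctsd: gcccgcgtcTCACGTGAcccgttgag
Mcoln1: gcgccccgcTCACGTGAccgcggcgc
Atp6v0d1: ctactgcggTCACGTGAgacgcggtg
Atp6v1a: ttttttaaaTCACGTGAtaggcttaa
Glb1: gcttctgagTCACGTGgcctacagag
Naglu: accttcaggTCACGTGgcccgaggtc
Gaa: tctgtgcgaTCACGTGtttgactctg

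With the first base of the transcript counted as 1 and the base before it as -1, the CACGTG of these sites begins at -12 in Ctsa, -98 in Ctsd, -45 in Mcoln1 and -3 in Atp6v0d1. It begins at -131 in Atp6v1a, -48 in Glb1, -73 in Naglu and -140 in Gaa. Ctsa, Ctsd and Mcoln1 each hold a further copy that is not shown. Lamp1, the ninth gene, holds 4 copies of CACGTG. They are capitalised in the 250 bases before its start (chr8:13158911-13159160, plus strand, GRCm38.p6). Scarb2 is set beside it because it is the member whose RNA differed between the labels. Its 250 bases (chr5:92505658-92505907, minus strand, GRCm38.p6) hold 0 copies of CACGTG and are given in lower case throughout.
Lamp1: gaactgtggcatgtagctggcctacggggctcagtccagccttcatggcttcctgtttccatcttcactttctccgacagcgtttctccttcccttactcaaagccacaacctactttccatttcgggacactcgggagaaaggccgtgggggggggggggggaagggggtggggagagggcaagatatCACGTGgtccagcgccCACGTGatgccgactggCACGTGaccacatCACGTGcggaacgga
Scarb2: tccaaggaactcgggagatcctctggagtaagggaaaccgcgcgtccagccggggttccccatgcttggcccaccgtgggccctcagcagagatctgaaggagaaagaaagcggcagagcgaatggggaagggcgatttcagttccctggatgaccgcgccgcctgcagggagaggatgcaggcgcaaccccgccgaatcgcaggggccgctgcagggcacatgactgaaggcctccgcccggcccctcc

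The values are normalized read counts of transcript 3' ends, and the reads recovered from them came to between 1508518 and 2383879 per library. The libraries did not group by label alone. Wild-type library 1 correlated at r = 0.857 and 0.856 with the other wild-type libraries across the tested genes, and at 0.875 and 0.888 with knock-outs 1 and 3. Knock-out library 2 reached 0.901 and 0.903 with wild-type libraries 2 and 3, against 0.946 and 0.924 with its own label. By their deviations from the label means the libraries fell into 2 sets, wild-type library 1 with knock-outs 1 and 3, and the other 3 libraries. Members whose call turned on wild-type library 1 are therefore also given without it and with a term for these sets, which were drawn from the same data. Nbr1 itself had normalized counts of 204.1, 278.0 and 288.7 under the wild-type label and of 203.7, 188.2 and 175.6 under the other (limma adjusted p = 0.22), and a count of 3' ends cannot show a deletion elsewhere in the gene. Sqstm1, which encodes p62, had a mean of 15.9 ± 7.1 against 773.7 ± 113.7 (SD, n = 3 each), 48.7-fold. The labels were therefore not checked by the targeted gene, and whether their contrast measures the loss of Nbr1 alone cannot be told from these data. Stellate and fibroblast markers differed widely in level. Of the 11 measured, 8 were called higher in the knock-out label (limma adjusted p under 0.05), against 4.67% of tested genes. Vim, Col3a1 and Dcn did not pass, with log2 changes of 0.38, 0.82 and 0.59. Col1a1 was at 2169.4 ± 33.2 against 5538.8 ± 320.5 (SD, n = 3 each). Lhx2 was low, at 14.1 ± 2.0 against 39.2 ± 6.5, and Lum was at 0.0 in the wild-type label against 14.7 ± 2.3. Des, Lrat, Reln, Ngfr and Rgs5 were not rows of the table. Of 20 macrophage markers, chosen because macrophages are rich in lysosomes, only Cd68, Csf1r and Cd14 were rows of the table, and their summed level lay between 12.6 and 14.7 in the wild-type label and between 16.6 and 27.5 in the knock-out label. All 3 were too low to be tested. Cd14 was at 4.1 ± 3.5 against 9.5 ± 9.8, with 20.6 in knock-out library 2. Csf1r was at 2.8 ± 1.1 against 5.7 ± 2.9, and Cd68 went the other way, at 6.5 ± 3.6 against 5.2 ± 0.8. The sums ran from 130.7 to 147.1 against 386.8 to 435.5 for 6 hepatocyte markers, of which Trf was higher (91.8 ± 6.1 against 375.7 ± 11.9) and Apoa2, too low to be tested, was at 7.3 ± 2.5 against 2.6 ± 1.0. The sums ran from 138.6 to 150.8 against 541.3 to 570.8 for 4 cholangiocyte markers. Of these, Sox9 was higher (15.3 ± 5.8 against 478.6 ± 15.3) and Spp1 was lower (74.6 ± 4.6 against 29.9 ± 3.0), while Krt19 was at 49.4 ± 1.9 against 33.7 ± 3.0. They ran from 1585.0 to 1756.9 against 1134.2 to 1316.7 for 6 mesothelial markers, of which Upk3b was called lower. Gpm6a made up most of these sums (1050.8 ± 125.5 against 813.0 ± 38.3). Msln alone of the 6 had a higher mean in the knock-out label (14.2 ± 4.3 against 22.8 ± 3.6). Kdr was the only endothelial marker among the rows (at most 8.3), and of 8 lymphocyte and neutrophil markers there were 0. The part of these markers in the results below was not tested. In bulk RNA, fewer cells of a type and less RNA per cell cannot be told apart.

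Of the 31 lysosomal genes, 1 rose and 0 fell in the knock-out label (limma on log2(value + 1), Benjamini-Hochberg adjusted p under 0.05 over all tested genes). The gene that rose was Scarb2, 2.29-fold, and edgeR and DESeq2 on the recovered reads gave the same 1 and 0. Over all tested genes 4.67% rose and 2.25% fell, 6.92% in all, against 3.23% of the members. The median log2 change was 0.17 over the members and -0.01 over all tested genes. Of the members 22 were above 0 and 9 below, against 5159 above and 5381 below over all tested genes. In 4 members (12.9%) the 3 values of one label lay apart from the 3 of the other, against 30.1% of tested genes. The members' reads made up 0.515%, 0.449% and 0.449% of the wild-type libraries and 0.557%, 0.507% and 0.564% of the knock-out ones, so the 2 labels overlapped in this share.

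**Figure D1:**
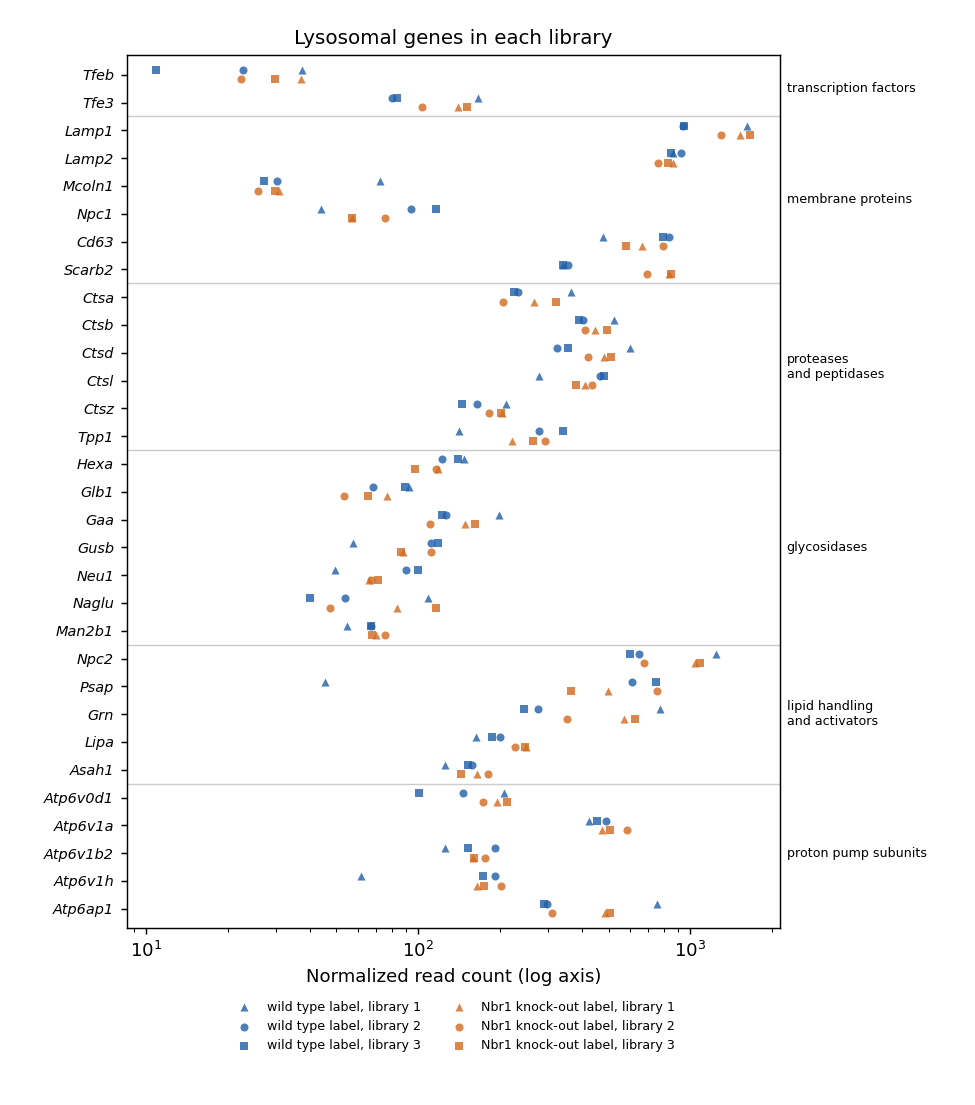
Normalized read count (log axis) of each lysosomal gene in each of the 6 libraries, grouped by role, with 1 point per library, blue for the wild-type and orange for the Nbr1 knock-out label. The 3 knock-out points of Scarb2 (691.0 to 847.2) lie to the right of its wild-type points (340.2 to 356.1), while wild-type library 1, the blue triangle, lies at one end of most other rows.

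Scarb2 encodes LIMP-2, an abundant protein of the lysosomal membrane. Its normalized counts were 340.2, 356.1 and 341.4 for wild-type replicates 1 to 3, against 836.4, 691.0 and 847.2 for the knock-out replicates. The groups did not overlap, and all 3 wild-type libraries, library 1 among them, lay close together. The mean was 345.9 ± 8.8 against 791.6 ± 87.2 (SD, n = 3 each), a log2 change of 1.19 (SE 0.13, 95% interval 0.87 to 1.5, limma adjusted p = 0.0038). Scarb2 passed in all 18 alternatives run, with a log2 change between 1.10 and 1.28 and an adjusted p between 4.07e-09 and 0.0402. Its log2 difference was 1.30 between knock-out libraries 1 and 3 and wild-type library 1, and 0.98 between knock-out library 2 and wild-type libraries 2 and 3. The 20 nearest tested genes on its chromosome, 10 on each side, included 0 that passed, with a median log2 change of -0.07.

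The other membrane proteins did not pass. Lamp1 and Lamp2 encode the 2 most abundant glycoproteins of the lysosomal membrane, and LAMP-2 also takes part in autophagosome fusion and chaperone-mediated autophagy. Lamp2 was the steadier of the pair, at 865.9, 927.1 and 847.1 normalized counts against 860.0, 762.3 and 830.6 (log2 change -0.11, SE 0.12, 95% interval -0.38 to 0.17). That interval leaves out a change of 1.5-fold in either direction. Lamp1 had 1619.7, 935.5 and 950.6 against 1517.1, 1291.8 and 1660.1 (log2 change 0.39, SE 0.24, adjusted p = 0.4). Here wild-type library 1 stood with the knock-out libraries, above the other wild-type libraries, and without it Lamp1 passed (log2 change 0.65, adjusted p = 0.0141), while with the set term it did not (0.21, adjusted p = 0.214).

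Mcoln1 encodes the calcium channel TRPML1, whose calcium release activates TFEB. It had 72.0 in wild-type library 1 and between 25.8 and 30.8 in the other 5 libraries, so its log2 change of -0.43 (95% interval -1.35 to 0.48) rested on that library and was at 0 to 2 decimals without it. Npc1, which encodes the membrane protein that exports cholesterol from the lysosome, had 44.0, 94.1 and 116.2 against 57.0, 75.6 and 57.0 (log2 change -0.32, adjusted p = 0.683). Library 1 was here the lowest of the wild-type libraries, and without it Npc1 was called lower (log2 change -0.73, adjusted p = 0.0452), but the change was -0.05 with the set term (adjusted p = 0.886) and -0.04 without wild-type library 3. Cd63, a tetraspanin of lysosomes and multivesicular bodies, had 479.0, 831.4 and 792.6 against 663.5, 791.6 and 577.9, with overlapping groups.

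The transcription factors themselves were measured in every library. Tfeb had normalized counts of 37.4, 22.7 and 10.9 against 37.1, 22.3 and 29.7, from 12 to 41 reads per library. The groups overlapped across most of their range, and the 95% interval of the log2 change, -0.63 to 1.53, holds both a fall of 1.5-fold and a rise above 2-fold. Tfe3 had 165.4, 79.8 and 83.5 against 140.3, 103.1 and 150.7 (log2 change 0.32, SE 0.32, adjusted p = 0.625). As with Lamp1, wild-type library 1 was above the other wild-type libraries, and without it the log2 change of Tfe3 was 0.66 with an adjusted p of 0.0529, and it was 0.07 with the set term (adjusted p = 0.756). TFEB and TFE3 are regulated largely by phosphorylation and location, which RNA levels do not show. The 9 members with TCACGTG in their promoter had a median log2 change of 0.19, with 5 above 0 and 0 called, and the 17 without it had a median of 0.17, with 13 above 0 and 1 called, Scarb2. Without wild-type library 1 the calls were 3 of the 9 (Lamp1, Ctsd and Atp6v0d1) and 2 of the 17 (Scarb2 and Grn). In that fit 12.1% of all tested genes were called higher and 9.02% lower. With the set term none of the 9 was called. The members called were then Scarb2, Psap, Lipa and Atp6v1h, the last with no promoter at hand, beside 14.3% and 12.2% of all tested genes.

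**Figure D2:**
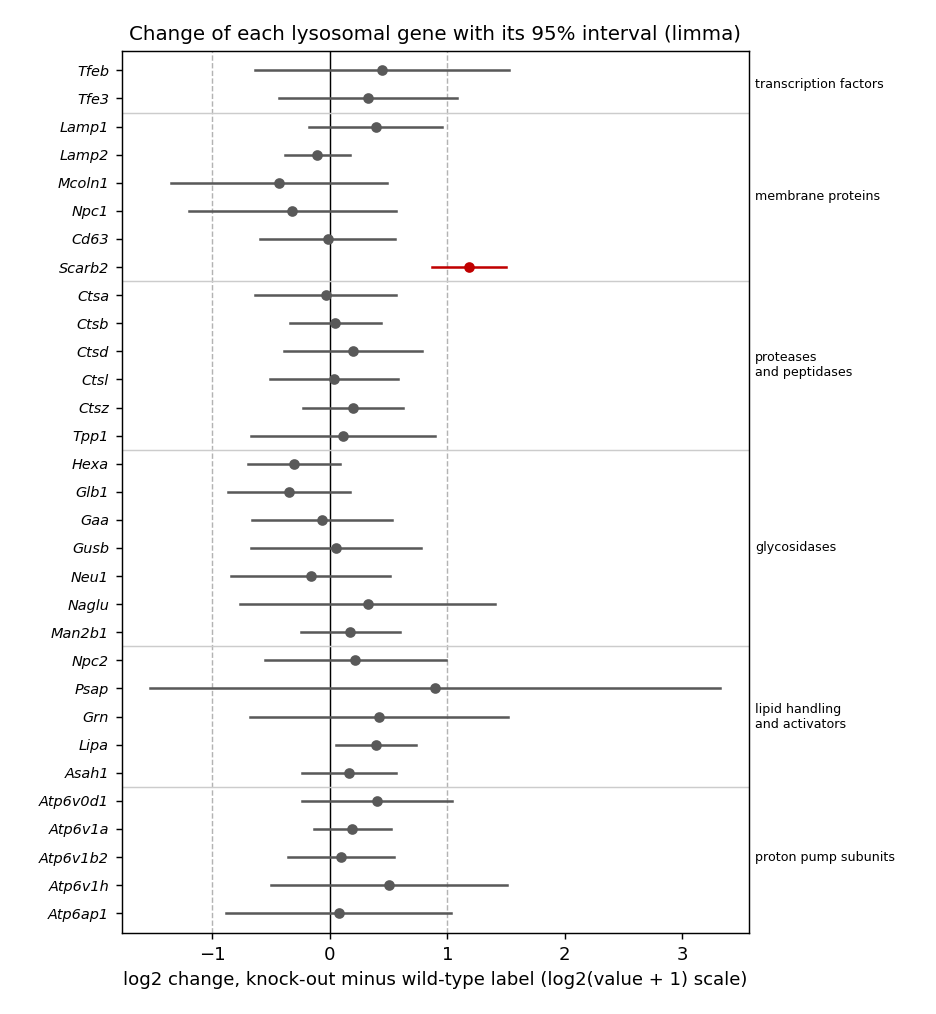
log2 change of each lysosomal gene, knock-out minus wild-type label on the log2(value + 1) scale, with its 95% interval from limma, where red marks an adjusted p under 0.05 and the dashed lines mark a 2-fold change. Only the interval of Scarb2 (0.87 to 1.5) is red, and that of Psap (-1.53 to 3.32) is the widest.

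None of the 6 proteases passed in limma, edgeR or DESeq2, and their log2 changes lay between -0.04 and 0.20. The 95% intervals of all 6 left out a change of 2-fold in either direction, as did those of 50.4% of tested genes. A change of 1.5-fold was left out by the intervals of 2 of the 6. Ctsb and Ctsl encode the cysteine cathepsins B and L, and Ctsd encodes the aspartic cathepsin D. 6 of the 31 genes (Ctsa, Ctsb, Ctsz, Glb1, Npc1 and Asah1) overlap another gene of the table, and whether strand was used in counting is not given, so their values are less certain. Ctsb had 524.3, 402.3 and 388.6 against 446.3, 410.0 and 494.8, and its knock-out values lay inside the range of the wild-type ones. Ctsl had 278.8, 466.1 and 480.3 against 408.3, 433.2 and 379.7, again inside it. Ctsd had 597.7, 322.5 and 354.1 against 482.5, 421.1 and 510.2. The high value of wild-type library 1 spanned the knock-out values, and without that library Ctsd passed (log2 change 0.47, adjusted p = 0.0405), but the change was 0.02 with the set term (adjusted p = 0.913) and 0.03 without wild-type library 2. Ctsa, the protective protein that keeps beta-galactosidase and neuraminidase stable, Ctsz, a carboxypeptidase, and Tpp1, a tripeptidyl peptidase, had log2 changes of -0.04, 0.19 and 0.11.

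The glycosidases trim sugars from glycoproteins, glycolipids, glycosaminoglycans and glycogen. None of the 7 passed in limma, edgeR or DESeq2, with log2 changes from -0.35 to 0.32, and the intervals of 6 left out a 2-fold change, the exception being Naglu (-0.76 to 1.41). Hexa, the alpha subunit of the beta-hexosaminidase that degrades GM2 ganglioside, had 146.8, 122.6 and 139.8 against 117.7, 116.0 and 97.3. Its groups did not overlap, with the knock-out label lower, but the log2 change of -0.30 (SE 0.16) had an adjusted p of 0.338. Glb1, which encodes the beta-galactosidase used as a senescence marker, had 92.1, 68.0 and 89.0 against 76.9, 53.3 and 65.3 (log2 change -0.35, SE 0.22, adjusted p = 0.417). Man2b1, a lysosomal alpha-mannosidase, went the other way by a small step, with 54.7, 67.2 and 67.2 against 69.7, 75.6 and 67.6 (log2 change 0.17, adjusted p = 0.638). Gaa, the acid alpha-glucosidase of glycogen, Gusb, the beta-glucuronidase, and Neu1, the sialidase, had log2 changes of -0.07, 0.05 and -0.16. Naglu, an enzyme of heparan sulphate breakdown, had 108.1, 53.7 and 39.9 against 83.3, 47.3 and 116.3, so each label held both high and low libraries. Its log2 change of 0.32 was 0.72 without wild-type library 1 and 0.02 without wild-type library 3.

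Among the genes of lipid breakdown and the activator proteins, all 5 log2 changes were above 0 and none passed, and those of Npc2, Psap and Asah1 turned below 0 in at least 1 alternative listed at the end. Lipa encodes the acid lipase that frees cholesterol and fatty acids from their esters. It had 162.8, 199.0 and 186.1 against 248.0, 226.9 and 245.6, and the 2 groups did not overlap. Its log2 change of 0.40 (SE 0.14, 95% interval 0.06 to 0.74) had an unadjusted p of 0.0283 and an adjusted p of 0.162. Besides Scarb2 it was the only member with an unadjusted p under 0.05, or 2 of 31, against 22.6% of tested genes. With the set term in limma, Lipa was called higher (log2 change 0.42, adjusted p = 0.0384). Asah1, the acid ceramidase, had a log2 change of 0.17 and Npc2, the soluble partner of NPC1, one of 0.22, which was 0.55 without wild-type library 1 and 0.03 without wild-type library 3.

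Psap and Grn showed the widest spread of this group. Psap encodes prosaposin, the precursor of the saposins that present sphingolipids to their enzymes. Its normalized count was 45.4 for wild-type library 1, 609.7 and 747.2 in wild-type libraries 2 and 3, and 497.0, 752.0 and 364.3 in the knock-out label. Wild-type library 1 thus stood far below the 5 others, and the log2 change of 0.90 (SE 1.02) turned to -0.39 (adjusted p = 0.326) without it. It was 0.21 in edgeR, 0.20 in DESeq2 and 1.68 with the set term (adjusted p = 0.0406). Grn, which encodes progranulin, a partner of prosaposin that is cut into granulins in the lysosome, moved the opposite way, with 773.8, 275.5 and 245.1 against 569.4, 350.7 and 626.5. Its log2 change was 0.42 (adjusted p = 0.666), or 0.94 without wild-type library 1 (adjusted p = 0.0353), 0.03 with the set term (adjusted p = 0.916) and 0.11 without wild-type library 3.

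The proton pump, the V-ATPase, has a V1 sector in the cytosol that uses ATP and a V0 sector in the membrane that conducts protons. None of the 5 subunit genes passed in limma, edgeR or DESeq2. All 5 log2 changes were above 0 in limma, between 0.08 and 0.50, but that of Atp6ap1 was below 0 in edgeR (-0.03) and DESeq2 (-0.05), and 4 of the 5 turned sign in some alternative listed at the end. Atp6v1a, the catalytic subunit, had 422.9, 487.9 and 454.9 against 473.4, 584.4 and 505.5. Its log2 change was 0.19 (SE 0.14, 95% interval -0.14 to 0.52). Atp6v1b2, a nucleotide-binding subunit, had a log2 change of 0.10, and its interval too left out a 1.5-fold change (-0.35 to 0.55). Atp6v1h, a regulatory subunit, had 61.4, 190.6 and 172.5 against 163.8, 202.0 and 174.4. Its log2 change of 0.50 rested on wild-type library 1 and was -0.02 without it. With the set term in limma the change was 0.80 and was called higher (adjusted p = 0.0396). Atp6v0d1, of the V0 sector, had 206.8, 146.1 and 100.8 against 194.6, 172.8 and 211.2, and was called higher without wild-type library 1 (log2 change 0.66, adjusted p = 0.0499) but not with the set term (0.24, adjusted p = 0.358). Atp6ap1, an accessory subunit, had 755.1, 296.5 and 290.5 against 486.1, 311.1 and 505.5.

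Libraries of the same label also differed from each other for many of these genes. Wild-type library 1 was the highest of all 6 libraries for 13 members and the lowest for 14, or 87.1% together, against 58.1% of tested genes. It was more than 1.5 times both other wild-type libraries for 11 members, namely Lamp1, Tfeb, Tfe3, Mcoln1, Ctsa, Ctsd, Gaa, Npc2, Grn, Naglu and Atp6ap1. It was below both by the same factor for 8, namely Ctsl, Gusb, Npc1, Psap, Cd63, Neu1, Tpp1 and Atp6v1h. Together these were 61.3% of the members, against 41.7% of tested genes. Knock-out libraries 1 and 3 lay on the same side of knock-out library 2 for all 11 of the first genes and for 7 of the 8 second ones. Over the 31 genes, the shift of wild-type library 1 and that of knock-out libraries 1 and 3 had the same sign in 26, the exceptions being Lamp2, Hexa, Scarb2, Lipa and Neu1. The 2 library sets were drawn from such deviations over all tested genes, so the agreement in side and sign was partly built in. Its share over all tested genes is not given here, and it is not a result about the members.

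**Figure D3:**
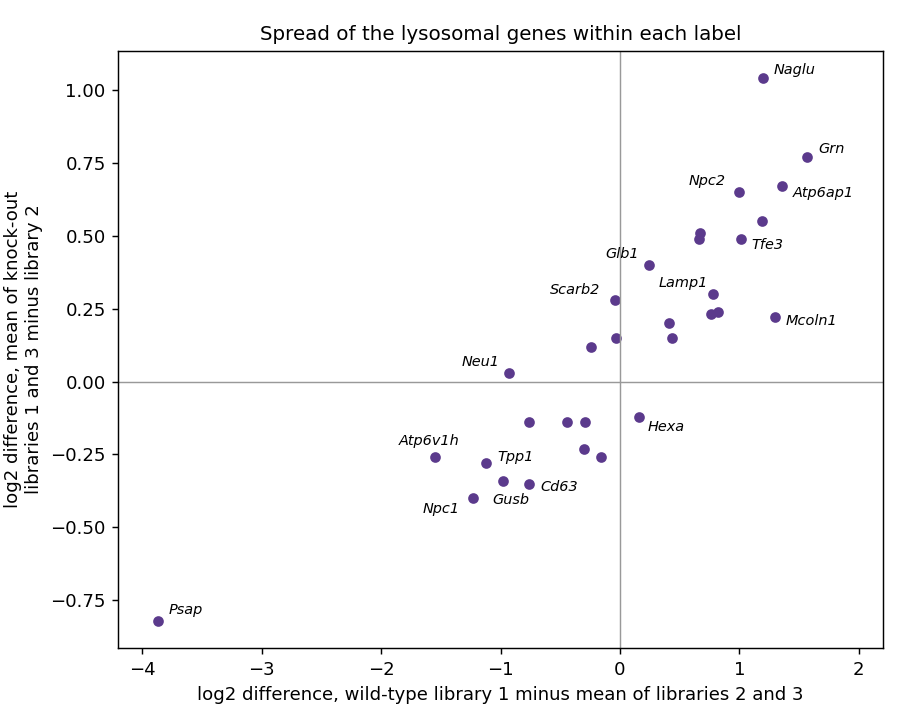
Each point is a lysosomal gene, with the log2 difference of wild-type library 1 from the mean of wild-type libraries 2 and 3 across and that of knock-out libraries 1 and 3 from knock-out library 2 upwards. Most points lie in the lower left and upper right, from Psap (-3.87 and -0.82) to Grn (1.57 and 0.77), and Scarb2 (-0.04 and 0.28) lies near the vertical line at 0.

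Without wild-type library 1, 5 of the 31 genes were called higher (Scarb2, Lamp1, Ctsd, Grn and Atp6v0d1) and 1 lower (Npc1). The shares of 16.1% and 3.23% stand beside 12.1% and 9.02% of all tested genes in that fit. With the sets added as a term, 4 were called higher (Scarb2, Psap, Lipa and Atp6v1h) and 0 lower, beside 14.3% and 12.2% of all tested genes. Of the members called in these 2 fits, Scarb2 was the only one called in both. Within the sets, 14 of the 31 genes had the same sign of difference in both, 8 of them higher and 6 lower under knock-out. The share over all tested genes is not given here, so this count is not a result about the members. The median log2 difference of the members was -0.03 in one set and 0.08 in the other.

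**Figure D4:**
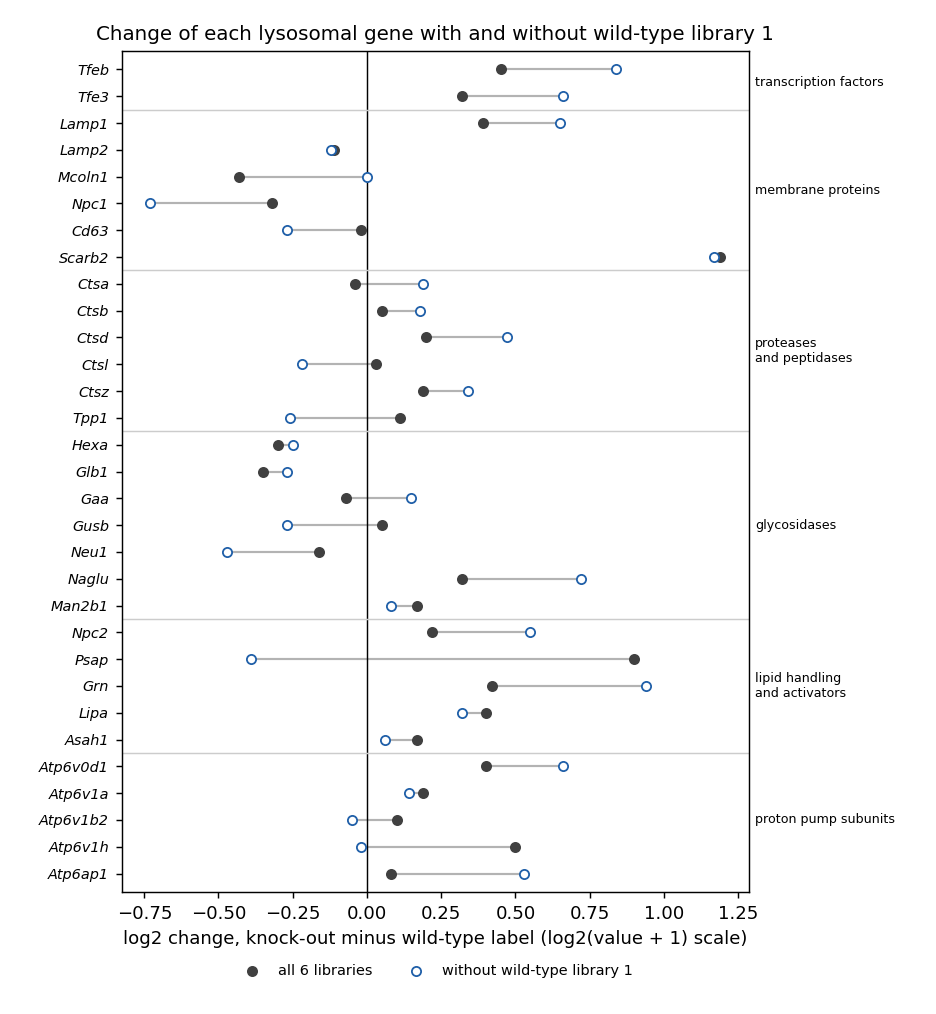
log2 change of each lysosomal gene, knock-out minus wild-type label on the log2(value + 1) scale, from all 6 libraries (filled points) and without wild-type library 1 (open points), joined by a line. Scarb2 stays in place at 1.19 and 1.17, while Psap moves from 0.90 to -0.39 and Grn from 0.42 to 0.94.

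A further 144 tested genes of 5 lists around the lysosome gave 1 that fell and 0 that rose (0.694%, against 6.92% of all tested genes). The gene that fell was Gga2, which encodes a Golgi adaptor that packs mannose 6-phosphate receptors and their enzymes into vesicles. It had 420.3, 237.7 and 234.2 normalized counts against 134.0, 109.2 and 123.4, with no overlap (log2 change -1.23, SE 0.25, limma adjusted p = 0.0365). Leaving out wild-type library 2 or 3, or any single knock-out library, ended the call (adjusted p from 0.0685 to 0.142) with a log2 change still between -1.15 and -1.37, while it held without wild-type library 1 at a change of -0.95 (adjusted p = 0.00646). Of the 33 delivery genes the next smallest p belonged to Cln8, which hands enzymes from the endoplasmic reticulum to the Golgi (30.3 ± 7.7 against 55.2 ± 2.5), and to Nagpa, which uncovers the mannose 6-phosphate tag (42.9 ± 14.9 against 84.5 ± 24.2). Neither passed, with an adjusted p of 0.0819 and 0.139.

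Of 41 further hydrolases and cofactors, 0 passed in limma and edgeR, 1 in DESeq2 (Manba, lower), and 5 (12.2%) had an unadjusted p under 0.05 in limma, against 22.6% of all tested genes. Manba, the beta-mannosidase, had 22.7, 62.1 and 28.1 against 7.2, 13.8 and 10.7 (adjusted p = 0.0776), and Sumf1, the activator of lysosomal sulphatases, had 80.0, 95.7 and 70.8 against 114.1, 147.8 and 124.6 (adjusted p = 0.102). The groups did not overlap for either. Plbd2, a phospholipase-like protein, had 84.8 ± 13.3 against 123.4 ± 16.2. Of 28 further membrane proteins, 0 passed in limma, 1 in edgeR (Litaf, higher) and 2 in DESeq2 (Litaf and Laptm4a, higher), and 4 (14.3%) had an unadjusted p under 0.05 in limma, again below 22.6%. Litaf had 153.9 ± 15.3 against 245.1 ± 27.9 (adjusted p = 0.0544), Laptm4a 1575.4 ± 229.2 against 2377.1 ± 125.6 (adjusted p = 0.0565) and Tmem192 40.9 ± 1.6 against 62.8 ± 5.2 (adjusted p = 0.102). All 3 encode membrane proteins of late endosomes and lysosomes. Chosen for their small p, all 3 had knock-out values above the wild-type ones, with groups apart as in 30.1% of tested genes, and the fourth gene of the list with an unadjusted p under 0.05 was lower.

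Of 17 further genes of the proton pump and its assembly, 0 passed in any of limma, edgeR and DESeq2, and in limma the unadjusted p was under 0.05 for 1 (5.88%), Wdr7, a Rabconnectin subunit that takes part in pump assembly (35.6 ± 13.3 against 66.8 ± 20.4, adjusted p = 0.17). Dmxl1, a relative of the other Rabconnectin subunit gene, had a log2 change of 0.35 (SE 0.17), and Atp6v1d, a subunit of the pump's rotor, had 317.7 ± 15.5 against 392.2 ± 51.3. Of 25 relatives and regulators of TFEB, 0 passed with any of the 3 tools, and in limma the unadjusted p was under 0.05 for 3 (12%). Tsc1, a brake on mTORC1, the kinase that holds TFEB in the cytoplasm, had 105.8 ± 26.5 against 67.1 ± 7.6 (adjusted p = 0.168). Lamtor2, of the Ragulator scaffold that recruits mTORC1 to the lysosome, had 52.2 ± 5.3 against 33.1 ± 9.5, and the kinase gene Gsk3b 414.4 ± 95.7 against 558.4 ± 20.1.

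Rragb, singled out after its values were seen, was too low in level for the test. It encodes one of the Rag GTPases that bring mTORC1 and TFEB to the lysosome, and its normalized counts were 8.0, 10.1 and 16.3 in wild-type cells and 0 in each knock-out library. These are 36 reads against 0, at least 11.7-fold lower with a floor of 3 reads over the group, for counting error only. With no filter on low values its adjusted p in limma was 0.00383. Its close relative Rraga had 116.1, 223.4 and 217.0 against 276.1, 262.1 and 230.2 (log2 change 0.52, adjusted p = 0.326).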

How the data were processed

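RNA of cultured hepatic stellate cells was made into libraries with a kit that reads 3' ends from 200 ng of total RNA, and read as single 75-base ends, per the labels' protocols. The authors deposited a table of normalized read counts (a signal unit, not raw counts). DESeq2 and the build GRCm39 are named in the submitters' processing notes, while the aligner, annotation, use of strand and use of molecular identifiers were not stated. The deposited values were whole multiples of what 1 read is worth in each library for 100% of values (tolerance 0.01), which gave back the reads.

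Values of at least 10 in 3 libraries were required, and log2(value + 1) was tested with limma 3.58.1 in R 4.3.3 (trend, all 6 libraries, 2 groups, two-sided) with Benjamini-Hochberg adjustment over 10540 genes and a threshold of 0.05. Alternatives used edgeR 4.0.16 and DESeq2 1.42.0 on the recovered reads, other pseudocounts, filters and scalings, a replicate block, and each library left out. A term for the 2 library sets and the removal of chromosome medians were chosen after seeing the data. The sets were drawn from the data by the libraries' deviations from their group means: wild-type library 1 with knock-out libraries 1 and 3, and the other 3 libraries. Fold changes on the log2(value + 1) scale understate those of low genes. The limma fit was also run on simulated counts with a fixed dispersion and no library sets, unlike these data. It recovered 27.3% of 1.5-fold, 80.3% of 2-fold and 100% of 4-fold changes, with 13 false calls. A gene that did not pass may therefore still differ. The members and lists were chosen with earlier results of these data known. Beyond the members, the text names the 3 genes of smallest p in each of the 5 other lysosomal lists. The 7 marker lists are given by their sums, and the marker genes named were chosen after their values were seen. Promoters came from RefSeq (GRCm38.p6). Ctsb, Npc1, Asah1, Atp6v1b2 and Atp6v1h had no promoter at hand and were left out of the promoter counts.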

Additional observations from a re-analysis of the deposited data

How the results depend on the processing

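Scarb2 was called higher in all 18 alternatives (16 planned). The number of members called higher was 1 in all but 2 of them: leaving out each library gave 1 to 5 higher and 0 to 1 lower, both extremes without wild-type library 1, and the term for the 2 library sets gave 4 higher. Over all tested genes the count higher was 492, or 241 with a mean of at least 50, 1503 with the set term and 146 to 1277 with a library left out, and the count lower was 237, or 139, 1288 and 54 to 951. With a mean of at least 50, Tfeb and Mcoln1 were not tested. The cause of these shifts was not tested. Replicate numbers did not pair the libraries: deviations from the group means correlated at 0.446, 0.7 and -0.624 within numbers 1, 2 and 3. With the replicate block 349 genes were higher and 127 lower, and the members' counts stayed at 1 and 0.

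For 19 members the log2 change turned sign in some alternative, in 43 of 556 values, and for 12 in none. With chromosome medians removed the log2 change was 0.03 for Lamp2, 0.07 for Ctsa, -0.04 for Gusb, -0.10 for Npc2, -0.03 for Man2b1, -0.04 for Asah1, -0.21 for Atp6v1a and -0.11 for Atp6v1b2. With the set term it was -0.05 for Ctsb, -0.06 for Npc2, 0.17 for Cd63, -0.05 for Naglu and -0.26 for Atp6ap1. DESeq2 gave -0.01 for Ctsl, -0.02 for Gusb and -0.05 for Atp6ap1, edgeR gave -0.00 for Gusb and -0.03 for Atp6ap1, and quantile normalization gave 0.02 for Cd63. With a library left out the change ran from -0.00 to 0.84 for Tfeb, -0.19 to 0.19 for Ctsa, -0.03 to 0.18 for Ctsb, -0.22 to 0.17 for Ctsl, -0.19 to 0.15 for Gaa, -0.27 to 0.24 for Gusb and -0.39 to 1.62 for Psap. It ran from -0.27 to 0.13 for Cd63, -0.47 to 0.03 for Neu1, -0.26 to 0.37 for Tpp1, -0.05 to 0.25 for Atp6v1b2, -0.02 to 0.79 for Atp6v1h and -0.16 to 0.53 for Atp6ap1. Depth limits Tfeb (159 reads in all) and Mcoln1 (209) most among the members.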

Other observations

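The base composition of the transcript end, where this kit reads, differed between the members that set wild-type library 1 apart. Over the last 300 bases of the longest coding transcript (GENCODE M21, GRCm38), the median GC content was 51.3% (45.3% to 60.7%) in the 11 members high in wild-type library 1, 40.7% (25.7% to 54.0%) in the 8 low in it and 47.2% (30.7% to 58.0%) in the 12 others. Across the 31 genes, which share the 6 libraries and are not independent, GC content and the log2 difference of wild-type library 1 from wild-type libraries 2 and 3 had a Spearman rho of 0.51 (Pearson r 0.37). Across 9929 tested genes rho was 0.39. For the difference of knock-out libraries 1 and 3 from knock-out library 2, rho was 0.43 in the members and 0.40 across tested genes. For the difference between the labels it was 0.03 in the members and 0.19 across tested genes. Psap went against the order, with a GC content of 53.3% and the lowest log2 difference, -3.87, in wild-type library 1. The part of base composition in the values was not tested.

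The median log2 change differed between chromosomes. It was -0.45 on chromosome 3, 0.40 on chromosome 16 and 0.37 on chromosome 18, and -0.48 over 18 mitochondrial genes, and was 0.09 on chromosome 5, which holds Scarb2. With chromosome medians removed Scarb2 was still called.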
